A study of Drosophila melanogaster with 10 samples.

Results

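The subject here is a group of 9 genes for nuclear receptors that are linked to the circadian clock or to daily physiology in the fly: Eip75B, unf, EcR, usp, ftz-f1, Hr38, Hr39, Hr96 and ERR. They were chosen by name, and every probe set that the platform annotation gives to one of them was taken. A probe set is a group of short probes for 1 transcript. In this way 13 of the 18769 probe sets other than controls were found, for 8 of the 9 genes; unf was found under its present symbol Hr51, and Eip75B was not analysed here. Of the 13 probe sets, 11 from 7 genes had a mean level of at least 4 and were tested together with all 12991 probe sets above that level. The probe set of unf and 1 of the 4 probe sets of Hr39 fell below it.

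RNA came from heads of yw flies, labelled as controls and with no other allele or agent named, at 6 times of day 4 hours apart. ZT (zeitgeber time) counts hours in the daily cycle, with lights-on at ZT0 by convention. There are 3 arrays for ZT3 and 3 for ZT15; each of the other 4 times (ZT7, ZT11, ZT19, ZT23) has a single array and so no replicate error. The sources used here give no age, sex, light schedule or origin of the replicates. The p-values below therefore reflect the spread between these arrays alone, and that spread could be technical. A level here is the natural log of a deposited value, read as a log2 value of GCRMA, the authors' summary of the probes. If the deposited values are plain intensities, every difference below is 1.44 times larger on the log2 scale.

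Nuclear receptors are transcription factors, many of which bind a small lipid-like ligand such as a steroid hormone. EcR binds the insect steroid 20-hydroxyecdysone and works as a pair with usp, and the hormone sets off a cascade in which further receptors, such as Eip75B, Hr39 and ftz-f1, are switched on or off in turn. In the fly's clock neurons, Eip75B and unf have been reported to act on transcription of per, whose protein represses its own gene in the clock.

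The 10 arrays fell into 2 sets that crossed the times of day. Clustering without the receptors' own probe sets gave a smaller set of 4 arrays, made up of replicates 2 and 3 of ZT15 with replicates 1 and 2 of ZT3. The larger set holds 6 arrays, 1 at each time, and is called the single series below. Arrays of the same set correlated at 0.968 to 0.992, and arrays of different sets at 0.720 to 0.830. Transcripts of male reproductive organs differed most: the mean of 10 testis markers was 3.72 to 5.89 in the smaller set and 10.9 to 12.1 in the larger set, and that of 10 accessory gland markers 4.004 to 4.404 in the smaller set and 11.2 to 12.4 in the larger set. These organs lie outside the head, and the source of their transcripts on the larger set was not tested. Markers of the head were present on all arrays: 7 photoreceptor markers averaged 12.995 to 13.6. Each comparison was therefore fitted in 2 ways, plain and with a block for the array set. The clock's own transcript per was higher at ZT15 than at ZT3 by 3.05 (limma, adjusted p = 0.00647, and 0.00252 with the block), with all 3 arrays of ZT15 above all 3 of ZT3. With any 1 of these 6 arrays left out, the adjusted p of per without the block was 0.0602 to 0.135 and its difference 2.999 to 3.09. With the block, the call of per was lost without ZT15 replicate 1, ZT15 replicate 3 or ZT3 replicate 3 (adjusted p = 0.0558 to 0.0702).

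None of the 11 tested receptor probe sets passed the threshold, an adjusted p of 0.05, in any of the 4 fits by limma. For ZT15 against ZT3, 0.0308% of all tested probe sets passed without the block and 0.154% with it. For a 24-hour cosine through all 10 arrays the shares were 0.0385% and 0.508%. At an unadjusted p under 0.05, the comparison of ZT15 with ZT3 held 1 receptor probe set without the block (1.81% of all tested) and 2 with it (9.6% of all tested). The cosine likewise held 1 without (1.61% of all tested) and 2 with the block (7.91% of all tested). These were the main probe set of Hr38 in every fit and 1 probe set of Hr39 in the fits with the block. The size of the receptors' differences was ordinary: the median absolute difference between ZT15 and ZT3 was 0.14 for the 11 probe sets and 0.13 for all tested. Precision is limited by the number of arrays, and the intervals given below show what size of change stays possible.

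**Figure D1:**
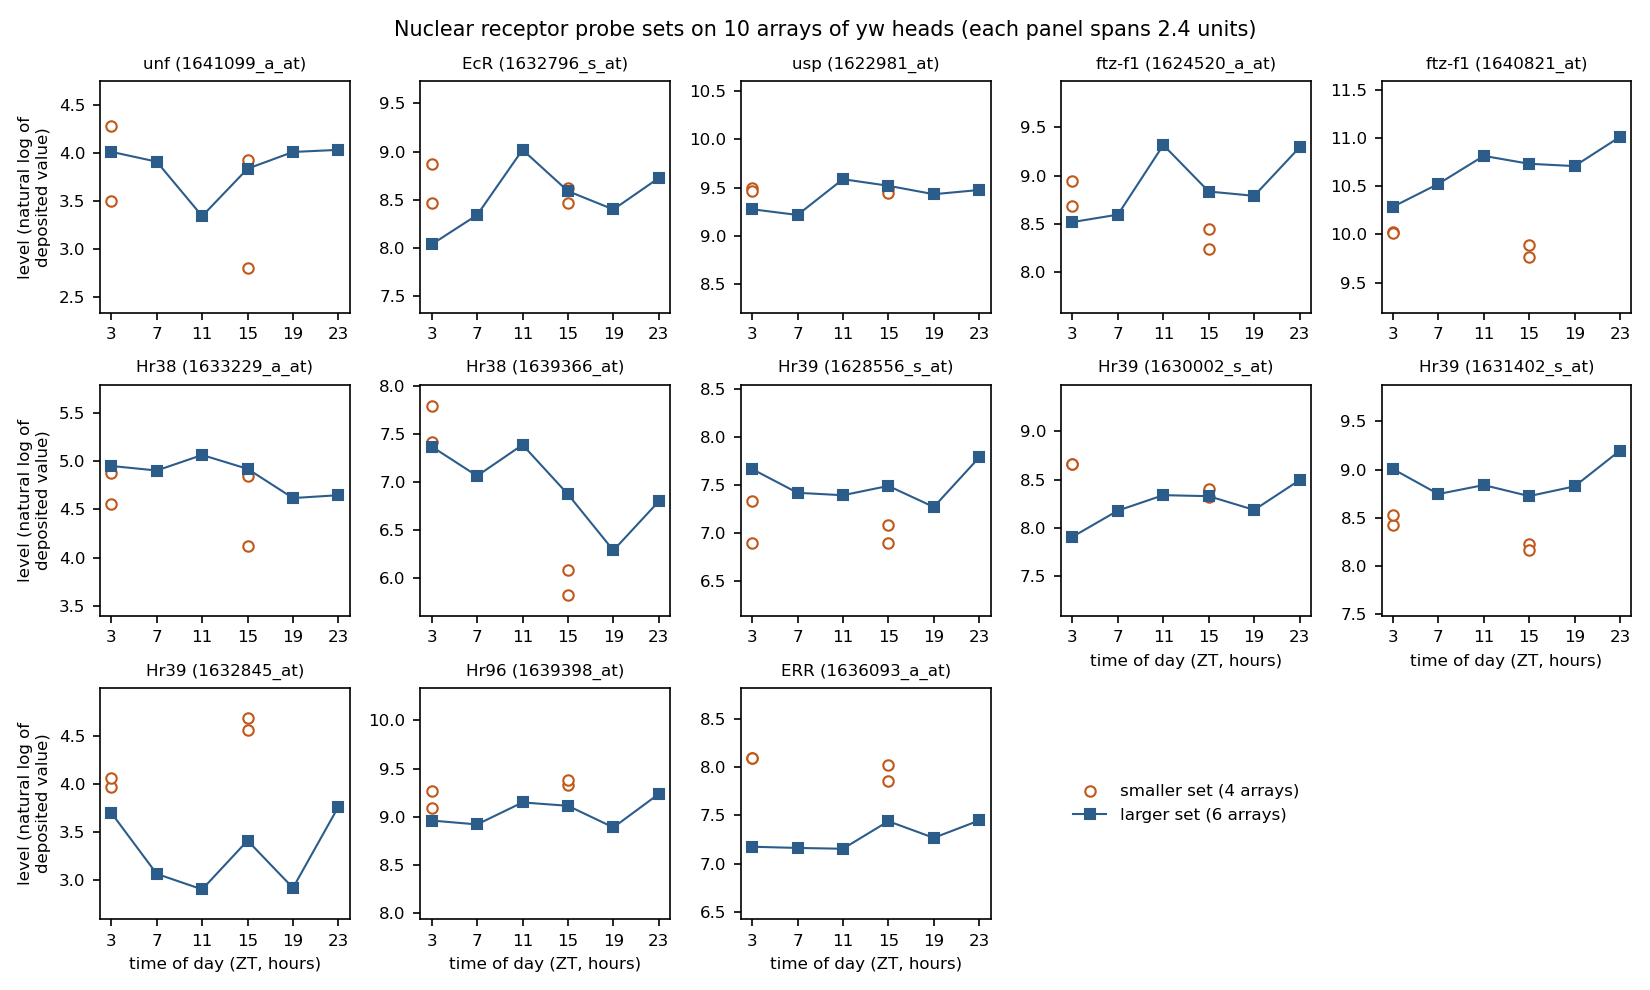
Level (natural log of the deposited value) of the 13 receptor probe sets on each of the 10 arrays, by time of day. Open orange circles are the smaller array set and blue squares joined by a line the larger; the panel of Hr38 (1639366_at) shows all ZT15 arrays below all ZT3 arrays, and that of ERR shows the smaller set above the larger.

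Hr38, the fly's NR4A receptor, had the largest difference among the receptors. NR4A genes are known in many animals as genes that neurons switch on when they are active, and in flies Hr38 is used as a mark of recent neuronal activity. Its main probe set, 1639366_at, read 6.87, 5.82 and 6.09 at ZT15 (replicates 1 to 3), against 7.79, 7.41 and 7.37 at ZT3. All 3 arrays of ZT15 lay below all 3 of ZT3, which 2.42% of all tested probe sets also showed and no other receptor probe set did. The means were 6.26 ± 0.54 at ZT15 and 7.52 ± 0.23 at ZT3 (SD, n = 3 each), a difference of -1.26, or 2.399-fold lower at ZT15.

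That difference of Hr38 did not pass after adjustment over all tested probe sets. Its SE was 0.32 without the block (limma, adjusted p = 1) and 0.28 with it (adjusted p = 0.291), and the 95% interval with the block was -1.98 to -0.55. The direction was the same in both array sets, -1.65 in the smaller set and -0.50 in the larger set. The difference between those 2 values, -1.15 ± 0.34 (SE), had an adjusted p of 0.642 (limma, interaction of time and array set). The larger set has a single array at each of these times, so the arrays behind the error of any such interaction are those of the smaller set. In the larger set, Hr38 read 7.37 at ZT3, 7.06 at ZT7, 7.38 at ZT11, 6.87 at ZT15, 6.29 at ZT19 and 6.80 at ZT23. The 3 lowest values were those of ZT15, ZT19 and ZT23. The fitted cosine had an amplitude (fitted mean to peak) of 0.68 ± 0.17 (SE, with the block) and a peak at ZT5.35, with an adjusted p of 0.308. A second Hr38 probe set, 1633229_a_at, lies near the low end of the scale and read 4.12 to 5.06 over the 10 arrays. Its difference between ZT15 and ZT3 was -0.16, with an interval of -0.73 to 0.40 (with the block), and it turned positive when ZT15 replicate 3 was left out.

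EcR and usp, the hormone receptor and its partner, were not called different between ZT15 and ZT3. EcR read 8.59, 8.46 and 8.62 at ZT15, against 8.87, 8.47 and 8.04 at ZT3. The ZT15 values lay inside the range of the ZT3 values, and the difference of 0.10 had an interval of -0.41 to 0.61 (with the block), so it may have either sign. usp read 9.52, 9.49 and 9.44 at ZT15, against 9.50, 9.46 and 9.28 at ZT3. Its difference was 0.07, with an interval of -0.20 to 0.33, and usp had the smallest SD about the set means of the 7 genes' main probe sets, 0.108.

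Along the single series of 6 times the hormone pair differed in spread. EcR read 8.04 at ZT3, 8.34 at ZT7, 9.02 at ZT11, 8.59 at ZT15, 8.40 at ZT19 and 8.73 at ZT23, a range of 0.98, which exceeds that of 77.3% of all tested probe sets. Ordered from low to high, only the steps from ZT3 to ZT7 and from ZT23 to ZT11 were wider than 0.22, the SD between arrays of the same time in the smaller set. This SD, here and below, is the spread of a single array, and a difference between single arrays spreads more widely. It also rests on few arrays of the other set, so a step wider than it is a description and no test. usp read 9.28 at ZT3, 9.22 at ZT7, 9.59 at ZT11, 9.52 at ZT15, 9.43 at ZT19 and 9.48 at ZT23, a range of 0.37. Both were highest at ZT11, and the cosine fit gave amplitudes of 0.10 for EcR and 0.06 for usp, each with an adjusted p of 1.

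unf, a receptor needed for the development of certain brain neurons in flies, was near the low end of the scale. It read 3.84, 3.92 and 2.81 at ZT15, against 3.50, 4.28 and 4.01 at ZT3, and 3.34 to 4.03 over the larger set. The groups overlapped, and its mean over all arrays was 3.77. No test was made. In RNA from many cell types, a transcript carried by few cells and one at a low level per cell cannot be told apart.

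ftz-f1 and Hr39 are the fly's 2 receptors of the NR5A family; ftz-f1 makes tissues competent to answer the hormone pulses of metamorphosis. The ftz-f1 probe set with the higher mean, 1640821_at, read 10.73, 9.76 and 9.89 at ZT15, against 10.03, 10.02 and 10.29 at ZT3. The groups overlapped, and the difference was 0.02 with an interval of -0.40 to 0.43 (with the block). The other, 1624520_a_at, read 8.83, 8.44 and 8.24 at ZT15, against 8.94, 8.69 and 8.52 at ZT3, a difference of -0.21 with an interval of -0.73 to 0.31. Both probe sets changed sign between the array sets. The differences between ZT15 and ZT3 were -0.20 and -0.47 in the smaller set, and 0.45 and 0.32 in the larger set, for 1640821_at and 1624520_a_at in that order. The interaction of time and array set had an adjusted p of 0.642 for each (limma). It had an unadjusted p under 0.05 for 4 of the 11 receptor probe sets (both of ftz-f1, 1639366_at of Hr38 and 1630002_s_at of Hr39) and for 7.67% of all tested, and passed after adjustment for 0 of all tested.

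In the single series ftz-f1 was low early in the day and high at ZT11 and ZT23. 1640821_at read 10.29 at ZT3, 10.53 at ZT7, 10.82 at ZT11, 10.73 at ZT15, 10.71 at ZT19 and 11.01 at ZT23. The other probe set had 8.52 at ZT3 and 8.59 at ZT7 as its lowest values, and 9.32 at ZT11 and 9.29 at ZT23 as its highest. For 1640821_at the neighbours ZT19 and ZT15 lay within the same-time SD of 0.06, and the other neighbours in its order did not. The fitted amplitudes were 0.11 and 0.09, with an adjusted p of 1 for each.

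Hr39, which helps to form the female reproductive glands of flies and was found as an early target of the hormone, had 4 probe sets with unlike values. The 1 with the highest mean, 1631402_s_at, read 8.72, 8.23 and 8.16 at ZT15, against 8.42, 8.53 and 9.01 at ZT3. The groups overlapped over all arrays, but within each array set ZT15 lay below ZT3, by -0.28 in the smaller set and -0.28 in the larger set. With the block, the difference of -0.28 ± 0.09 (SE) had an interval of -0.52 to -0.04 and an adjusted p of 0.465 (limma). Its cosine had an amplitude of 0.19, a peak at ZT0.184 and an adjusted p of 0.559 with the block. The probe sets 1630002_s_at and 1628556_s_at differed between ZT15 and ZT3 by -0.06 (interval -0.50 to 0.39) and -0.14 (interval -0.52 to 0.24). The fourth, 1632845_at, was not tested and read 2.90 to 4.69. It was higher in the smaller array set, at 3.97 to 4.69, than in the larger, at 2.90 to 3.76, near the low end of the scale.

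Hr96 binds lipids and governs the response to toxins and the handling of cholesterol and fat. It read 9.11, 9.33 and 9.39 at ZT15, against 9.27, 9.09 and 8.96 at ZT3. The groups overlapped, and the difference of 0.17 was nearly equal in the smaller set (0.18) and the larger set (0.15). The interval was -0.08 to 0.43 and the adjusted p 0.675 (limma, with the block). In the single series it ran from 8.89 at ZT19 to 9.24 at ZT23, a range larger than that of 20.4% of all tested probe sets.

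ERR, which switches on the glycolysis and related sugar metabolism that support larval growth, read 7.44, 8.02 and 7.86 at ZT15, against 8.09, 8.09 and 7.18 at ZT3. The difference was -0.01, with an interval of -0.34 to 0.32 (with the block), and its sign turned under 2 other scalings (0.07 after quantile normalization and 0.01 after median centring). In the single series ERR moved little: 7.18 at ZT3, 7.16 at ZT7, 7.15 at ZT11, 7.44 at ZT15, 7.27 at ZT19 and 7.45 at ZT23. Ordered from low to high, the steps from ZT3 to ZT19 and from ZT19 to ZT15 were wider than the same-time SD of 0.08, and the other steps were not.

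**Figure D2:**
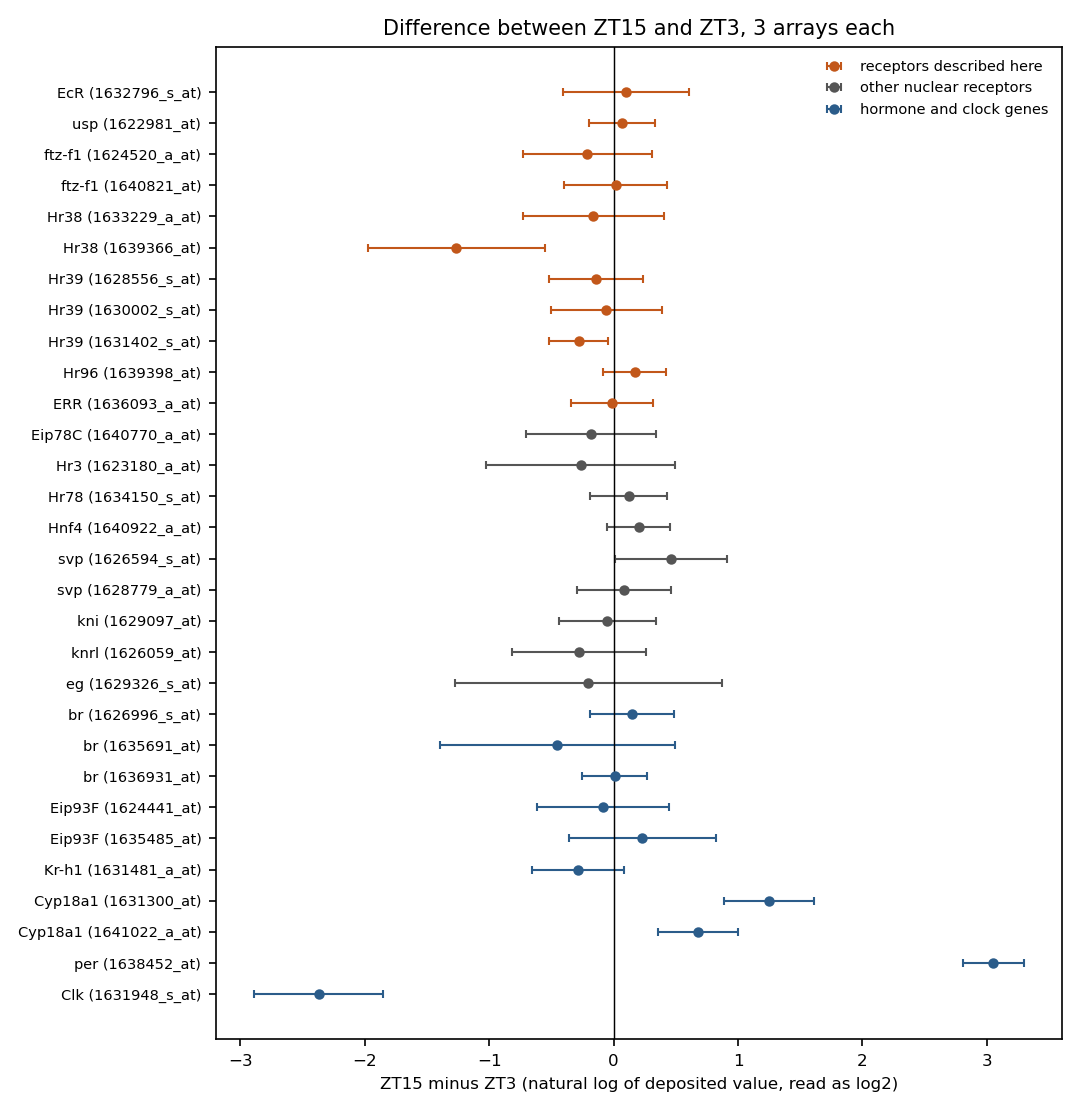
Difference in level, ZT15 minus ZT3, of each tested probe set of the receptors described here (orange), of other nuclear receptors (grey) and of hormone and clock genes (blue). Bars are 95% intervals from the fit with the array set as a block (limma, 3 arrays per time), before adjustment; those of Hr38 (1639366_at, -1.98 to -0.55) and Hr39 (1631402_s_at, -0.52 to -0.04) lie below 0 and those of the other orange points include 0.

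In the single series the highest values of the receptors fell at 2 times. Each of the 11 tested probe sets had its highest value at ZT11 (5 probe sets) or ZT23 (6 probe sets), where 51.9% of all tested probe sets had theirs. This was noticed after the values were seen and is a description of 6 arrays. The lowest value was at ZT3 for 4 of the 11 (18.1% of all tested) and at ZT19 for 4 (21.8% of all tested), and the courses were not alike: ERR was lowest at ZT11, where EcR, usp and Hr38 were highest. The ranges were not wide: the median was 0.51 for the 11 and 0.58 for all tested. Marker levels also varied along the single series. The mean of 9 eggshell markers was 7.403 at ZT11 and 3.59 to 4.91 on the other arrays of the larger set, and that of 7 neuron markers was 10.5 at ZT23, against 9.76 to 9.90 on the rest of the set. The mean of 8 muscle markers was 10.66 at ZT3, 9.74 at ZT7 and 11.27 at ZT11. At ZT15, ZT19 and ZT23 it was 8.63, 11.67 and 9.22. It was highest at ZT19, where Hr38 was lowest, and next highest at ZT11, where Hr38 was highest. The part of these markers in the receptors' courses was not tested.

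**Figure D3:**
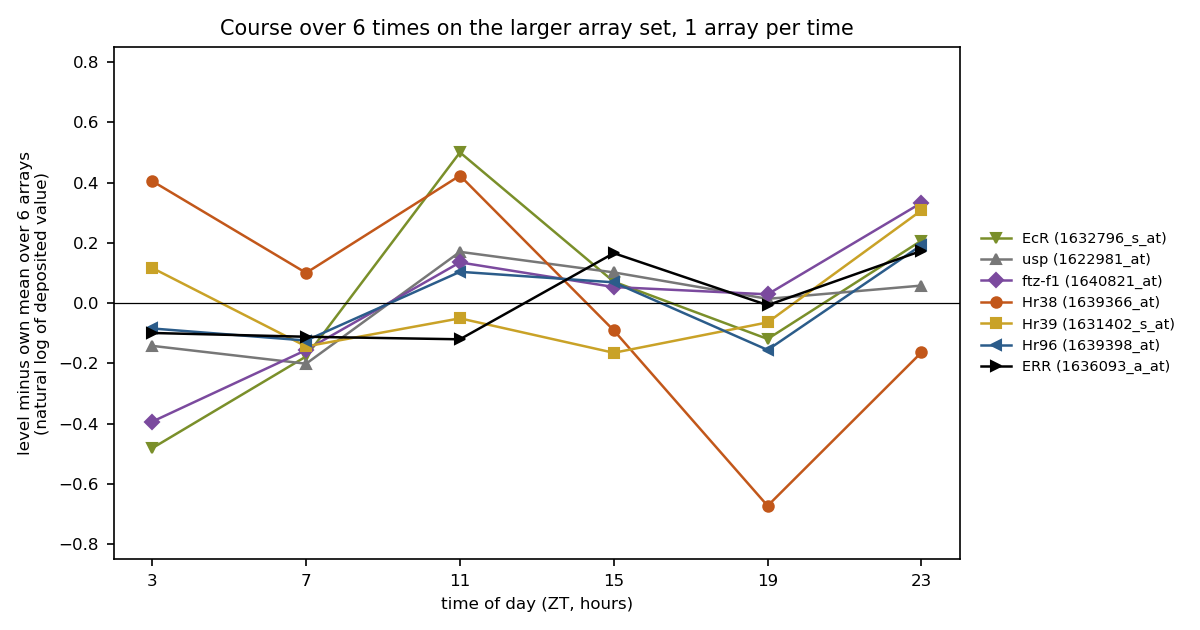
Course of the main probe set of the 7 tested receptor genes over the 6 times on the larger array set, 1 array per time, as level minus the probe set's own mean over these 6 arrays. Each line has its highest point at ZT11 or ZT23, and Hr38 has the lowest point, at ZT19.

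For 8 of the 11 tested receptor probe sets the difference between the array sets was larger than that between ZT15 and ZT3; for Hr38 (1639366_at), EcR and usp it was smaller. The sets were drawn from these data, so what follows is a description. ERR was at 8.02 ± 0.11 (SD, n = 4) in the smaller set and 7.27 ± 0.14 (SD, n = 6) in the larger set, a difference of 0.74 or 1.67-fold, with no overlap. ftz-f1 (1640821_at) was at 9.92 ± 0.12 in the smaller set and 10.68 ± 0.25 in the larger set, a difference of -0.76 with no overlap. Hr39 (1631402_s_at) was at 8.34 ± 0.17 in the smaller set and 8.89 ± 0.18 in the larger set, again with no overlap. The probe sets of Hr39 did not share a direction. In the smaller set 1628556_s_at was lower (7.05 against 7.51) and 1630002_s_at higher (8.51 against 8.24), each with overlap. The untested 1632845_at was higher there without overlap. The other 8 tested receptor probe sets overlapped between the sets, so that 3 of 11 did not overlap, against 55.3% of all tested probe sets. By direction, 1 of 11 was higher in the smaller set (33.3% of all tested) and 2 were lower (22% of all tested). The median difference was -0.18 for the 11 and 0.18 for all tested; quantile normalization moved them to 0.07 for the 11 and 0.29 for all tested, and turned the sign of both Hr38 probe sets, to 0.24 for 1639366_at and 0.34 for 1633229_a_at. The 3 differences without overlap kept their direction under quantile normalization and median centring.

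Some cell type markers moved with the sets as well, while the means of photoreceptor, glia, muscle and eggshell markers overlapped between the sets. Neuron markers averaged 8.90 to 9.20 in the smaller set and 9.76 to 10.5 in the larger set, and 6 fat body markers averaged 10.97 to 11.4 in the smaller set and 10.2 to 10.6 in the larger set. The testis and accessory gland markers given above were lower in the smaller set. What part any of these tissues had in the receptor differences was not tested.

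**Figure D4:**
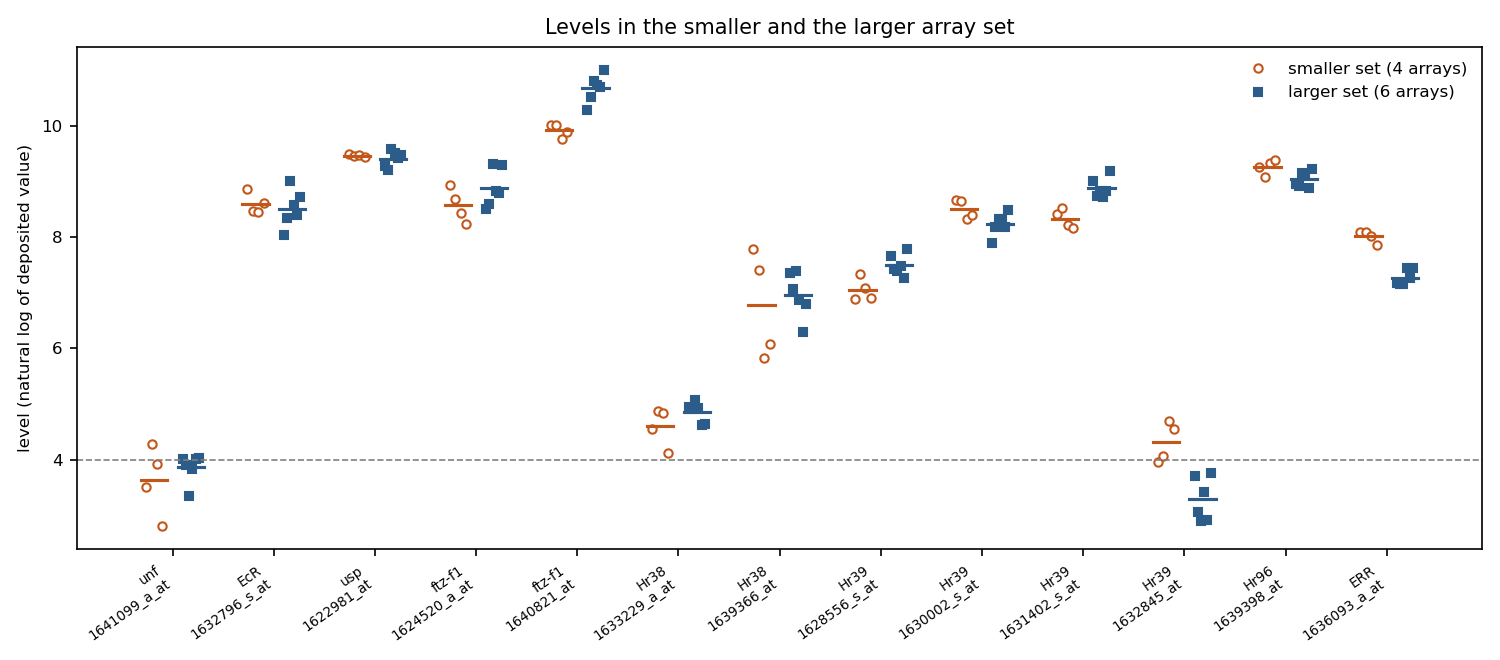
Level of each receptor probe set on the smaller array set (open orange circles) and the larger (blue squares), 1 point per array; short bars are means, and the dashed line at 4 is the mean level needed for testing. ERR lies higher, and ftz-f1 (1640821_at) and Hr39 (1631402_s_at) lie lower, in the smaller set without overlap. Hr39 (1632845_at, not tested) lies higher there without overlap, and Hr39 (1630002_s_at) higher with overlap.

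The fly's other nuclear receptors gave no call either. Of 12 listed, each had a probe set and 8 were tested. The 4 that were not tested, Hr4, Hr83, tll and dsf, had mean levels of 2.14 to 3.38. None of the 8 passed in any of the 4 fits, and their differences between ZT15 and ZT3 ran from -0.28 for knrl to 0.20 for Hnf4, with a median of -0.12. Hnf4, which controls fat breakdown, read 10.99 ± 0.08 at ZT15 and 10.79 ± 0.05 at ZT3 (SD, n = 3 each), with all ZT15 arrays above all ZT3 arrays, as for 2.71% of all tested probe sets and 0 of the 11 above. Its adjusted p was 0.615 with the block (limma). Hr3, the fly's ROR receptor, differed by -0.26, Eip78C, a relative of Eip75B, by -0.18, and Hr78 by 0.12, each with overlap between the times. kni and eg differed by -0.05 and -0.20, and the main probe set of svp by 0.08. A second svp probe set, 1626594_s_at, differed by 0.46, with an interval of 0.01 to 0.91 and an adjusted p of 0.507 with the block.

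Genes that answer the hormone were also without a call. Of 16 listed, 10 were tested and 0 passed in any of the 4 fits. Their differences at main probe sets, ZT15 minus ZT3, ran from -0.28 to 0.90, with a median of 0.09 (all tested probe sets, 0.01). br, an early response gene, differed between ZT15 and ZT3 by 0.15 at its main probe set. The difference was -0.09 for Eip93F, which specifies adult programmes, and -0.28 for Kr-h1, which carries the juvenile hormone signal. Eip74EF was not analysed here.

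Among 14 listed genes of hormone synthesis, breakdown and transport, 7 were tested and 1 passed. This was Cyp18a1, the enzyme that inactivates 20-hydroxyecdysone. In the fits as designed it passed as rhythmic with the block, and in no other of the 4 fits. Its main probe set, 1631300_at, read 9.48, 10.28 and 10.39 at ZT15, against 9.16, 8.81 and 8.42 at ZT3. All ZT15 arrays lay above all ZT3 arrays, and the difference of 1.25 ± 0.14 (SE, with the block) had an adjusted p of 0.100 (limma; 1 without the block). With the block it passed in 1 of 14 alternatives, the trended and robust variance prior (adjusted p = 0.00957). It was 1.35 in the smaller set and 1.06 in the larger set. The cosine had an amplitude of 0.71 ± 0.09 (SE), a peak at ZT17.0 and an adjusted p of 0.0352 with the block and 1 without it (limma), and the call held in 9 of 17 alternatives. In the other 8, which left out ZT7, ZT11 or 1 of the arrays of ZT3 or ZT15, the adjusted p of Cyp18a1 (1631300_at) was 0.0696 to 0.14 and the amplitude 0.65 to 0.74. Its second probe set, 1641022_a_at, had an amplitude of 0.53, a peak at ZT18.3 and an adjusted p of 0.172 with the block.

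Lists tied to single receptors held no call in the 4 fits. Of the genes of sugar breakdown linked to ERR, 10 were tested. Their differences, ZT15 minus ZT3, ran from -0.17 to 0.05, with a median of -0.09 (all tested probe sets, 0.01). For 7 other genes linked to neuronal activity they ran from -0.65 to 0.23, with a median of -0.20. Of 5 tested lipid and toxin genes linked to Hr96 the median was 0.02, and of 10 cofactors of the receptors it was -0.05. By comparison, of 8 core clock genes 3 rose without the block, 3 rose and 2 fell with it, and 3 and 6 were rhythmic without and with it. Clk, the activator of per, was lower at ZT15 by -2.37 (adjusted p = 0.171, and 0.0464 with the block; limma). With the block, the call of Clk was lost without any 1 of the 6 arrays (adjusted p = 0.108 to 0.315), with no filter (0.0786) and after quantile normalization (0.0534).

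The genes whose course was most like that of a receptor were sought for the 3 receptors that varied most about the set means: Hr38 (SD 0.637), EcR (0.276) and ftz-f1 (0.200). Likeness was Pearson's r over the 10 arrays after subtracting each set's mean, among 10164 other genes. All genes were read on the same arrays, so a difference in signal or tissue content between arrays can act on many genes at once. Nearest to Hr38 were hll (r = 0.964), CG6928 (0.951) and ken (0.951). ZT15 minus ZT3 was -1.77 for hll, -0.39 for CG6928 and -0.46 for ken (limma with the block, adjusted p = 0.148, 0.488 and 0.434). These genes were chosen for their likeness to Hr38 on the same arrays, so their direction is no separate evidence on Hr38. Nearest to EcR were Su(z)12 (r = 0.962), l(2)k14505 (0.962) and beag (0.959). Nearest to ftz-f1 were CG5116 (r = 0.967), CG40228 (0.957) and CG8777 (0.948). With so many candidates and 10 arrays, values of this size are a ranking and no more.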

How the data were processed

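Heads of yw flies were measured on 10 Affymetrix Drosophila 2.0 arrays. Each array has 1 deposited intensity for every probe set, made with GCRMA per the submitters' processing notes; no version or settings are known here. The deposited intensities reach 8527865, above the 65536 levels of a scanner, so their natural log was read as GCRMA's log2 value; log2(value + 1) was an alternative. Gene names came from the platform annotation: 13647 probe sets had 1 symbol, 402 several and 4720 none here. After removal of 183 controls, the 12991 probe sets whose mean reached 4 (a deposited value of 54.6) were tested.

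ZT15 minus ZT3 (6 arrays) and a 24-hour cosine (10 arrays) were fitted with limma 3.58.1 in R 4.3.3, with Benjamini-Hochberg adjustment over all tested probe sets, threshold 0.05, each also with a block for the array set, which took the median residual SD to 0.176, against 0.372 in the plain fit. The fits were tested on simulated data. A gene's main probe set has the highest mean. The receptors, lists and tests were chosen with earlier results of these data known. Named genes are the receptors, the other nuclear receptors, br, Eip74EF, Eip93F, Kr-h1, Cyp18a1, per and Clk, list genes that passed, and the 3 genes most like each of the 3 most variable receptors. Alternatives covered the filter (none, or a mean of 6), scaling, a pseudocount of 16, the variance prior, left-out arrays and blocks; the interaction of time and array set was added after seeing the data.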

Additional observations from a re-analysis of the deposited data

How the results depend on the processing

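No receptor probe set passed the threshold in any alternative run, and the values of Hr38 (1639366_at) for ZT15 minus ZT3 with the array set block ranged from -1.82 to -1.02, with an adjusted p of 0.137 to 0.63 (limma). Over all tested probe sets the counts past the threshold moved with the settings. For ZT15 minus ZT3 without a block, 4 passed, 20 with the array set as a block, 0 with the replicate number as a block, and 0 to 0 with an array left out in turn. With the array set block, 20 became 13 after quantile normalization, 102 with a trended and robust variance prior, and 0 to 5 with an array left out. For the cosine, 5 became 3 after quantile normalization, 9 with the trended and robust prior, 66 with the array set as a block, 0 on the larger array set alone (453 at an unadjusted p under 0.05, limma) and 2 to 4 with an array left out; with the block, 66 became 13 to 72. The cause was not tested. Same-numbered arrays of ZT15 and ZT3 correlated in their deviations from the mean of their time at -0.893, 0.804 and -0.903 (replicates 1 to 3). Both arrays of replicate 2 are in the smaller set, and those of replicates 1 and 3 are split between the sets. With the sets laid out so, these values cannot show whether replicate numbers pair the samples. The replicate block left 106 probe sets at an unadjusted p under 0.05 (limma). An array that stands alone for its time in its array set is assumed to vary like the others. This applied to the larger set in every fit, and to the smaller set where 1 of its arrays was left out.

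The sign of small differences between ZT15 and ZT3 turned in some settings. ERR became 0.066 after quantile normalization and 0.015 after median centring, and kni 0.018 after quantile normalization, in the fits without and with the block. With an array left out, without the block, ranges were -0.110 to 0.307 for EcR, -0.320 to 0.153 for ERR, -0.284 to 0.201 for ftz-f1 (1640821_at), -0.309 to 0.089 for Hr38 (1633229_a_at), -0.341 to 0.044 and -0.311 to 0.068 for Hr39 (1628556_s_at, 1630002_s_at), -0.365 to 0.173 for kni, -0.606 to 0.207 for knrl, -0.598 to 0.421 for eg, -0.138 to 0.302 for svp (1628779_a_at), -0.456 to 0.131 for Eip93F (1624441_at), and -0.098 to 0.279 and -0.039 to 0.045 for br (1626996_s_at, 1636931_at). With the block they were -0.125 to 0.281 for EcR, -0.018 to 0.108 for usp, -0.153 to 0.074 for ERR, -0.196 to 0.116 for ftz-f1 (1640821_at), -0.351 to 0.062 for Hr38 (1633229_a_at), -0.299 to 0.034 for Hr39 (1630002_s_at), -0.224 to 0.074 for kni, -0.693 to 0.147 for eg, -0.016 to 0.228 for svp (1628779_a_at), -0.314 to 0.020 for Eip78C, -0.311 to 0.116 and -0.078 to 0.413 for Eip93F (1624441_at, 1635485_at) and -0.045 to 0.081 for br (1636931_at). Signals near the low end, as for unf, limit what can be seen there.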

Other observations

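Other receptors differed between the array sets without overlap. Of the 8 other nuclear receptors tested, 4 lay higher in the smaller set at their main probe set, against 33.3% of all tested probe sets, and 0 lay lower. eg was at 5.11 ± 0.62 (SD, n = 4) in the smaller set and 3.60 ± 0.23 (SD, n = 6) in the larger set. All arrays of the larger set read below 4 for eg, at 3.26 to 3.95, near the low end of the scale. It reached the mean of 4 needed for testing only through the smaller set, so its place among the 4 is partly set by that filter. knrl was at 7.39 ± 0.27 in the smaller set and 6.42 ± 0.29 in the larger set. kni was at 8.23 ± 0.17 in the smaller set, against 7.56 ± 0.12 in the larger set. svp was at 10.38 ± 0.17 in the smaller set, against 9.85 ± 0.13 in the larger set. Its other tested probe set, 1626594_s_at, was lower in the smaller set, at 6.80 against 7.06, with overlap. The untested svp probe set 1635192_at was higher there. kni, knrl and eg form 1 family of receptors, known from patterning of the embryo, that lack a ligand-binding domain.

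Among hormone response genes, Eip93F was at 10.16 ± 0.27 in the smaller set and 11.04 ± 0.17 in the larger set, and br at 7.44 ± 0.09 in the smaller set and 8.14 ± 0.37 in the larger set. Neither overlapped between the sets at its main probe set. Of all tested probe sets, 22% likewise lay lower in the smaller set without overlap. Kr-h1 was at 10.14 in the smaller set and 10.46 in the larger set, with overlap. The other tested probe sets of Eip93F and br did overlap. In the smaller and the larger set, Eip93F (1635485_at) was at 6.97 and 7.04, and br at 5.86 and 6.52 (1635691_at) and 4.59 and 4.54 (1636931_at). The 6 differences at main probe sets kept their direction under quantile normalization and median centring. The other probe sets moved more under quantile normalization. The difference, smaller minus larger set, went from 0.05 to 0.63 for br (1636931_at), then without overlap. It went from -0.66 to -0.01 for br (1635691_at) and from -0.07 to 0.29 for Eip93F (1635485_at). The sets were drawn from these data, so these values carry no test.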
